A study of Mus musculus with 6 samples.

Results

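The 10 circadian clock genes Dbp, Tef, Nr1d1, Nr1d2, Per1, Per2, Per3, Cry1, Cry2 and Clock were followed in whole mouse lung, in 3 strains with and without exposure to cigarette smoke. Members were all probe sets whose single gene symbol in the platform annotation is one of these names. The rule found 12 probe sets, 1 for each gene and 3 for Cry1, for 10 of the 8251 genes measured. The groups were the control and the smoked lung of C57, DBA and ICR mice, with 1 Affymetrix array each, 6 in all. Smoked mice breathed the smoke of 3 cigarettes a day on 5 days a week for 4 weeks, and control lungs are labelled as normal. The sources used here do not give genotype, substrain or age, or say whether an array held 1 mouse or a pool, although each title numbers its sample as mouse 1. Nor do they give the hour at which lungs were taken. It matters for these genes, and strain and hour cannot be told apart here.

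The circadian clock is a loop of transcription and repression that runs in nearly every cell, lung cells included. CLOCK and its partner BMAL1 (gene Arntl) switch on Per, Cry, Nr1d and Dbp genes from E-box elements, and the PER and CRY proteins then shut that activation down. In a second arm the NR1D receptors (REV-ERB) repress Arntl, Clock, Npas2 and Cry1 at ROR elements, and DBP and TEF drive D-box genes such as Per3. Levels of Dbp and Nr1d1 swing widely over the day in many organs, opposite in phase to Arntl.

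Deposited values are probe set intensities on a linear scale, printed below with the control array first and the smoked array second for each strain. Differences and fits use log2 of the intensity plus 8.05, quantile normalized between arrays, and are called log2 values below. A probe set was called higher or lower when limma gave an adjusted p below 0.05 over all 7465 probe sets that passed the filter on low signal. Array medians lay between 52.2 and 84.8 on 5 arrays and at 25.9 on the ICR smoked array, which also had the highest 3' to 5' ratios of control probe sets, a sign of RNA quality (4.75 for beta-actin and 2.39 for Gapdh). These ratios differed between strains too: beta-actin stood at 2.75 and 2.51 in C57, 1.46 and 1.66 in DBA and 1.63 on the ICR control array, and Gapdh at 1.69 and 1.38, 0.967 and 0.952, and 1.11 in the same order. Of 6 lung markers measured 4 passed the filter, among them Sftpc, the alveolar type II surfactant protein C, at 7184 to 10579 and Scgb1a1, the club cell secretory protein, at 7572 to 10324. The surfactant protein gene Sftpd (4.74 to 24.5) and the endothelial Pecam1 (12.1 to 43.5) read low and did not pass. With 1 array for each strain and exposure, p-values measure only the spread between these arrays. In whole lung, fewer cells of a type and less RNA per cell cannot be told apart.

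All 10 genes had 1 probe set that passed the filter. The other Cry1 probe sets, both of a type marked in the array's naming as not meeting its usual selection rules, read 0.228 to 4.94 and were not tested. The Cry1 probe set that passed is of a type that may also detect related sequences. Dbp passed at the 47.7th percentile of mean signal, just above the threshold at the 40th, and rests on its DBA and ICR values.

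The first comparison asked how the clock genes differed between DBA and C57 lungs, whatever the exposure. In DBA 4 of the 10 were called higher (Dbp, Nr1d1, Nr1d2 and Per3) and 0 lower, against 0.871% of all probe sets called higher. The 10 genes were chosen with earlier results of these data known, so such counts, here and below, are descriptive. The 3' to 5' ratios, higher on both C57 arrays than on both DBA arrays, moved with this comparison, and their part in it was not tested. The median difference over the 10 genes was 0.70 on the log2 scale, against -0.05 over the 5740 genes tested. On log2 values after scaling, both DBA arrays lay outside the range of the C57 arrays for all 10 genes, 8 higher and 2 lower, but that holds for 52.5% of all probe sets. On the deposited scale the arrays overlapped for Clock.

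**Figure D1:**
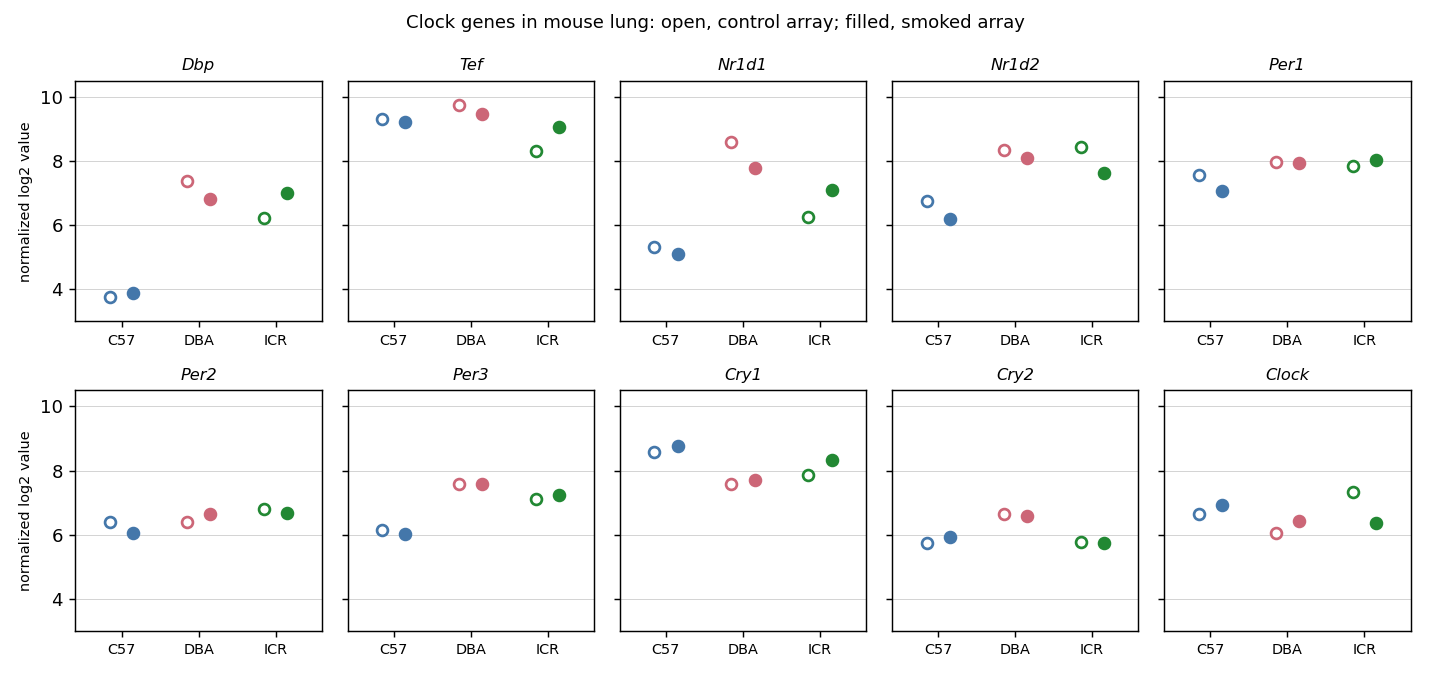
Normalized log2 value of each clock gene (vertical axis, the same for all panels) on the control array (open point) and the smoked array (filled point) of C57, DBA and ICR lung (horizontal axis). Each point is 1 array, and heights are not to be compared between genes. Dbp and Nr1d1 are lowest on both C57 arrays, and Dbp runs from 3.75 and 3.89 in C57 to 7.40 and 6.81 in DBA.

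Dbp encodes a PAR bZIP transcription factor that binds D-boxes. Its intensity was 5.46 and 6.56 in C57, 188 and 153 in DBA, and 62.3 and 54.9 in ICR. The C57 values were the lowest and lay below the added constant of 8.05. DBA was higher by a log2 difference of 3.28 (9.74-fold on that scale, SE 0.36, adjusted p = 0.00334). Because C57 read so low, the size depends on the constant, and it ran from 2.10 to 4.23. All 14 alternatives in which Dbp was tested called it. With the filter at the 60th percentile Dbp did not pass and had no test. At the 40th percentile it was kept through its DBA and ICR values. Tef, the related D-box activator, read 777 and 687 in C57, 939 and 949 in DBA, and 285 and 257 in ICR. Its DBA to C57 difference was 0.33 (SE 0.28, adjusted p = 0.747), so the D-box activators did not share a call.

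Nr1d1 encodes REV-ERB alpha, a heme-sensing nuclear receptor that represses Arntl. It read 33.9 and 27.3 in C57, 439 and 306 in DBA, and 64.1 and 58.6 in ICR. The strains did not overlap, with DBA highest and C57 lowest. The DBA to C57 difference was 2.97 (7.86-fold, SE 0.37, adjusted p = 0.00532), called under all 15 alternatives with a range of 2.37 to 3.54. In the mouse reference annotation the Nr1d1 gene overlaps Thra, a thyroid hormone receptor gene, by 1075 bases. The Thra probe sets differed between DBA and C57 by -0.06 (adjusted p = 0.968) and 0.55 (adjusted p = 0.500). Nr1d2, which encodes the second REV-ERB receptor, read 114 and 70.7 in C57, 367 and 378 in DBA, and 316 and 89.8 in ICR. It was higher in DBA by 1.75 (3.36-fold, SE 0.25, adjusted p = 0.00936), a call lost only without scaling between arrays (adjusted p = 0.0890).

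Per3 was the one period gene called. PER proteins join CRY proteins to block CLOCK and BMAL1, and PER3 is the member whose loss disturbs the rhythm least. Its intensity was 67.7 and 61.6 in C57, 215 and 266 in DBA, and 120 and 65.9 in ICR. DBA was higher by 1.501 (2.83-fold, SE 0.25, adjusted p = 0.0170). That call was lost without the C57 control array (adjusted p = 0.0589), without the C57 smoked array (0.0669), without the filter (0.0620) and without scaling (0.156). Per1, which responds fast to glucocorticoids and other signals, read 217 and 141 in C57, 281 and 339 in DBA, and 208 and 119 in ICR. Per2, a core repressor, read 84.5 and 63.3 in C57, 92.4 and 135 in DBA, and 97.3 and 43.5 in ICR. Their DBA to C57 differences were 0.64 (SE 0.26, adjusted p = 0.378) and 0.29 (SE 0.27, adjusted p = 0.778), so neither was called, and for Per2 the lower DBA array and the higher C57 array were both at 6.40.

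The cryptochromes, the main repressors of the loop, had differences of opposite sign. Cry1 read 456 and 492 in C57, 216 and 291 in DBA, and 209 and 148 in ICR. Its DBA to C57 difference of -1.01 (SE 0.23, adjusted p = 0.0703) was not called, except with arrays scaled to a common median (-1.20, adjusted p = 0.0326). Cry2 read 48.9 and 57.7 in C57, 111 and 129 in DBA, and 43.4 and 21.0 in ICR, with a difference of 0.77 (SE 0.28, adjusted p = 0.299). Clock, the activator, read 105 and 129 in C57, 71.7 and 119 in DBA, and 141 and 34.2 in ICR. At -0.54 (SE 0.35, adjusted p = 0.648) it was not called, and in that comparison Cry1 and Clock were the 2 members with a negative value.

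Promoter windows of 300 bases, 250 before the start and 50 after it, were taken from RefSeq (GRCm38.p6). Of the 10 genes, 9 had a window, 13 windows in all, and Per2 is not among them. The windows of the 4 genes called in DBA against C57 are shown because these genes were called together. Capitals mark matches on either strand to an E-box (CACGTG), an E-box variant (CACGTT), a D-box (TTATGNAA) or the half-site of ROR elements (AGGTCA). The windows lie at chr7:45704997-45705296 (plus strand) for Dbp, chr11:98775328-98775627 (minus strand) for Nr1d1, chr14:18239057-18239356 (minus strand) for Nr1d2 and chr4:151044616-151044915 (minus strand) for Per3.
Dbp: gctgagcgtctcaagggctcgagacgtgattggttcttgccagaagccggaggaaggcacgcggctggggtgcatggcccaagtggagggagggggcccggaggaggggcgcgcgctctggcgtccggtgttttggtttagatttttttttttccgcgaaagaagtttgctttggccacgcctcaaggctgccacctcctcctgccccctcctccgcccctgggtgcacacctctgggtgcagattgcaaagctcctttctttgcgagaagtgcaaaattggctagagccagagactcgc
Nr1d1: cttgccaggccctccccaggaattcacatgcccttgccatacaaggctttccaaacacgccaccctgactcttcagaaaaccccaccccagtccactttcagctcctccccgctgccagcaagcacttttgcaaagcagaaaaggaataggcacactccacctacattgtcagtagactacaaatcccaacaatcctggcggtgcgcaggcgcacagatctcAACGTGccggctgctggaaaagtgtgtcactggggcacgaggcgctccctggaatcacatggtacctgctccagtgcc
Nr1d2: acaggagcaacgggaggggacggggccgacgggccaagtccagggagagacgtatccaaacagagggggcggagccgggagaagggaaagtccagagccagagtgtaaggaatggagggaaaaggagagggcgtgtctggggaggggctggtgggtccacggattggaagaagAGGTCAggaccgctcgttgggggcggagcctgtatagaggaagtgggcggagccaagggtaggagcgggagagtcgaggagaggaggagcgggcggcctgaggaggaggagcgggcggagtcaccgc
Per3: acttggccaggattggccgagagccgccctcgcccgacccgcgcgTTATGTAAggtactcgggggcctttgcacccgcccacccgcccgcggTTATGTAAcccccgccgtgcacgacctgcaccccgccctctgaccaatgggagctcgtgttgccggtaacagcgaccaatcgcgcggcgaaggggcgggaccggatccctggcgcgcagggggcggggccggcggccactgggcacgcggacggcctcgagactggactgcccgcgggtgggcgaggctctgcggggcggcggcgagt

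Among all 32851 windows, 7.15% held the E-box, 4.68% its variant, 3.38% the D-box and 16.3% the ROR half-site. The Per3 window held 2 D-boxes, both TTATGTAA, starting 205 and 158 bases before the start. Nr1d1 held the E-box variant 28 bases before its start and Nr1d2 the ROR half-site 77 bases before, while these letters were not found in the Dbp window. Of the 9 genes, the E-box was in 3 (Tef, Per1 and Cry1), its variant in 3 (Nr1d1, Cry1 and Cry2), the D-box in 2 (Per1 and Per3) and the half-site in 3 (Nr1d2, Per1 and Clock). These matches are a description of the windows. Their counts are per gene, while the shares among all windows are per window. Within these windows no motif was shared by the 4 genes called, and sequence outside them was not searched.

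The second comparison set ICR against C57, and it shares the C57 arrays with the first. Dbp and Nr1d2 were called higher in ICR, 2 of the 10 genes with 0 lower, against 0.924% of probe sets called higher. The median over the 10 genes was 0.58, against -0.03 over all genes tested. Dbp was higher by 2.79 (SE 0.36, adjusted p = 0.00639), a size that again depends on the added constant. It ran from 1.69 to 3.70 over the 14 alternatives in which Dbp was tested. Nr1d2 was higher by 1.57 (2.98-fold, SE 0.25, adjusted p = 0.0163). Nr1d1 at 1.45 (SE 0.37, adjusted p = 0.0908) and Per3 at 1.08 (SE 0.25, adjusted p = 0.0638) were positive and not called. On log2 values after scaling, arrays of the 2 strains did not overlap for 8 of the 10 genes, 6 higher and 2 lower, against 51.2% of all probe sets. On the deposited scale the arrays overlapped for Nr1d2, Per1, Per2 and Per3, which are among those counted as higher.

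Tef, unlike Dbp, had a value of -0.58 (SE 0.28, adjusted p = 0.314) in ICR against C57. Per1 at 0.64 (SE 0.26, adjusted p = 0.241) had a positive value, which became -0.14 without scaling, when the median over all probe sets was -0.73. Cry1 was at -0.57 (SE 0.23, adjusted p = 0.244), while Cry2 (-0.09) and Clock (0.06) were close to 0 with SEs of 0.28 and 0.35. The count of 2 was 0 without the ICR smoked array, 1 without the ICR control array, 0 without the filter on low signal and 1 without scaling. It was 4, with Nr1d1 and Per3 added, when either DBA array was left out. Nr1d2 lost its call without the ICR control (adjusted p = 0.134) or ICR smoked array (0.0523), and Dbp without the ICR smoked array (0.0571). Without the filter both were lost (adjusted p = 0.0571 for Dbp and 0.0586 for Nr1d2), and without scaling Nr1d2 was at 0.863 (adjusted p = 0.356).

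The third comparison, ICR against DBA, called 0 of the 10 genes in limma, against 1.17% of all probe sets. At an unadjusted p below 0.05 were 3 (Nr1d1, Tef and Cry2), as were 15.6% of all probe sets. Nr1d1 was at -1.52 (SE 0.37, adjusted p = 0.104), a value called without the C57 control (adjusted p = 0.0108), C57 smoked (0.00978) or DBA smoked array (0.000361, at -2.09). Tef was at -0.91 (SE 0.28, adjusted p = 0.168) and Cry2 at -0.85 (SE 0.28, adjusted p = 0.195). Dbp, with -0.50 (SE 0.36, adjusted p = 0.536), and Nr1d2, with -0.17 (SE 0.25, adjusted p = 0.777), had arrays of the 2 strains that overlapped on log2 values. On log2 values after scaling the arrays did not overlap for 6 of the 10 genes, against 47.9% of all probe sets. On the deposited scale Per2, counted as higher in ICR, overlapped, and Cry1, also counted as higher, was lower in ICR. On the deposited scale the ICR smoked array read lower for Nr1d2 (89.8) than the C57 control array (114).

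**Figure D2:**
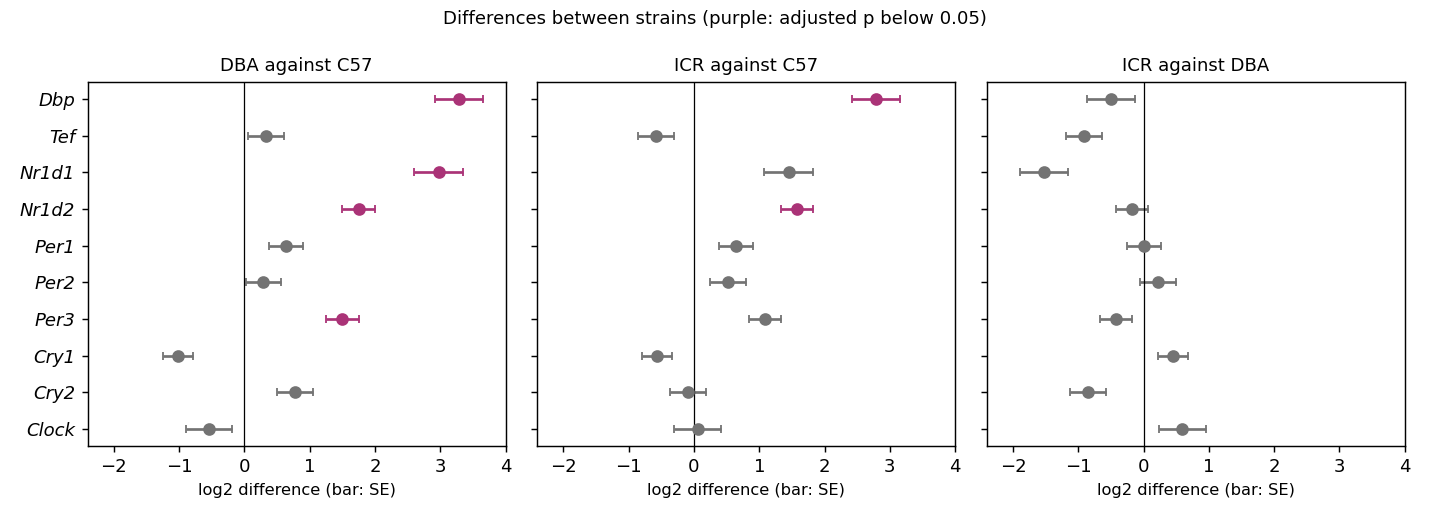
Fitted log2 difference between strains (horizontal axis, bar: SE) for each clock gene, from 2 arrays per strain with smoke as a term. Purple points passed at an adjusted p below 0.05. Dbp and Nr1d2 pass in both comparisons with C57, at 3.28 and 1.75 for DBA and 2.79 and 1.57 for ICR, and no gene passes between ICR and DBA.

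Skeletal muscle markers differed between C57 and both other strains, while sums of liver and of neutrophil markers were highest on single arrays. Over the 5740 genes tested, 41 were called higher and 52 lower in DBA against C57. In ICR against C57 the counts were 50 higher and 87 lower. The 8 skeletal muscle genes measured summed to 5900 and 4154 in C57, 914 and 398 in DBA, and 195 and 110 in ICR, and 5 of the 7 tested were called lower in each strain than in C57. Their part in the clock gene differences was not tested. Liver genes (5 measured, 3 tested) had 1 called higher in DBA than in C57, Serpina1b (3.65, SE 0.53, adjusted p = 0.00997), and summed to 4016 on the DBA smoked array and to 55.2 to 487 on the others. Alb, the gene of serum albumin, read 20.6 and 1455 on the DBA control and smoked arrays, where Dbp read 188 and 153. The part of liver genes in the clock gene differences was not tested. The 5 neutrophil genes summed to 16575 on the DBA control array and to 844 to 2797 elsewhere, with 0 of 5 called between strains. Without the DBA control array the DBA to C57 differences were 2.76 for Dbp, 2.41 for Nr1d1, 1.97 for Nr1d2 and 1.504 for Per3. The part of neutrophil genes in the clock gene differences was not tested. Heart muscle markers (4 genes, sums of 993 to 3608) and B cell markers (3 genes, 224 to 797) had no gene called between strains. Of 4 lung markers tested only the surfactant gene Sftpb was called, lower in ICR than in C57 (-0.997, adjusted p = 0.0349).

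The next comparison asked what smoke did to the clock genes over the 3 strains. In limma 0 of the 10 were called, against 0.0402% of all probe sets, and the median difference was -0.03, against 0.007 over all genes. At an unadjusted p below 0.05 was 1 gene, Nr1d2, as were 1.65% of all probe sets. Fitted differences ran from -0.55 to 0.26, with SEs of 0.19 to 0.31. None of the 10 differed 2-fold within a strain, while 1.21% of probe sets did in C57, 3.05% in DBA and 6.50% in ICR, where there was no test.

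The same direction in all 3 strains was seen for 2 of the 10 genes, as for 17.6% of all probe sets. Nr1d2 was lower with smoke in each pair, with log2 differences of -0.57 (C57), -0.25 (DBA) and -0.81 (ICR) and a limma estimate of -0.55 (SE 0.20, adjusted p = 0.99995), although its deposited DBA values were 367 and 378. Cry1 was higher by 0.17, 0.13 and 0.48 in the same order (limma estimate 0.26, SE 0.19, adjusted p = 0.99995), although its deposited ICR values were 209 and 148. A count of 2 in 10 is near that share of all probe sets. Nr1d1, the closest relative of Nr1d2, was at -0.21 in C57, -0.81 in DBA and 0.83 in ICR.

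**Figure D3:**
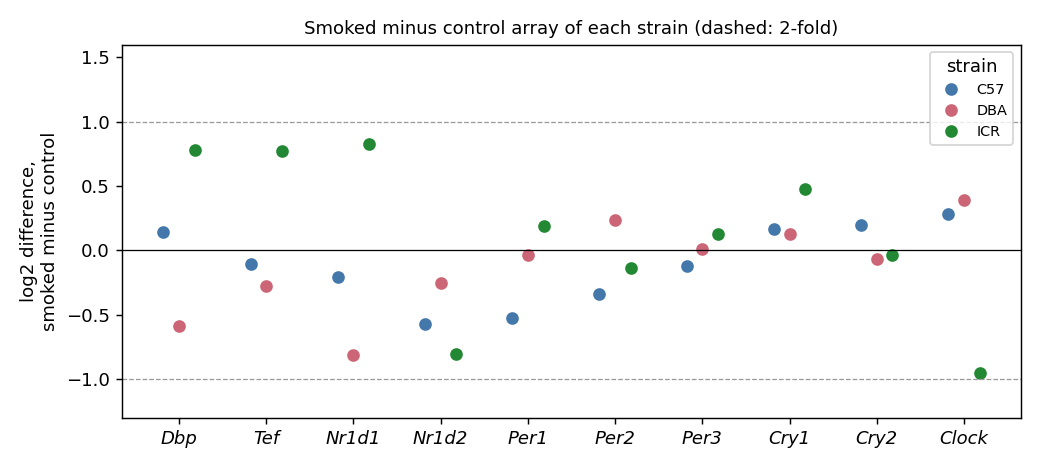
Log2 value of the smoked minus the control array of C57, DBA and ICR (vertical axis; 1 pair of arrays per point) for each clock gene, with dashed lines at 2-fold. No point passes 2-fold. Only Nr1d2 lies below 0 and only Cry1 above 0 in all 3 strains.

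The ICR pair differed in value from the C57 and DBA pairs for several members. Dbp, Tef and Nr1d1 were higher on its smoked array by 0.78, 0.77 and 0.83, against 0.14, -0.10 and -0.21 in C57 and -0.59, -0.27 and -0.81 in DBA. Clock was lower there by -0.95, against 0.28 in C57 and 0.39 in DBA. Tested as an extra smoke effect in ICR, none of the 10 was called, as for all probe sets (0%), with 3 at an unadjusted p below 0.05: Clock (-1.28, SE 0.33, adjusted p = 0.302), Tef (0.96, SE 0.27, adjusted p = 0.310) and Nr1d1 (1.34, SE 0.40, adjusted p = 0.321). At that unadjusted level were 14.3% of all probe sets. The signs of Dbp, Tef and Nr1d1 in this pair rest on scaling, since their deposited values were a little lower on the smoked array. That array had the lowest median of the 6 arrays and the highest 3' to 5' ratios. The part of RNA quality in these values was not tested. Without scaling the Tef response was -0.07 and the Clock response -2.29 (adjusted p = 0.00221), with a median over all probe sets of -0.99.

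Smoke responses of C57 and DBA called 0 of the 10 genes each, against 0.174% and 0.697% of all probe sets. In C57 no member had an unadjusted p below 0.05, as 3.05% of probe sets did. In DBA 1 had, Nr1d1 (-1.12, SE 0.56, adjusted p = 0.9998), as did 3.94% of probe sets. SEs were 0.49 to 0.71 in C57 and 0.51 to 0.63 in DBA. Markers of other cells moved in the same tests: in the DBA response 3 of 3 liver genes were called higher (median 6.49) and 4 of 5 neutrophil genes lower (Ngp, Camp, S100a8 and S100a9; list median -4.71), and in the C57 response, which takes the DBA pair among its references, 2 of 3 liver genes were called lower. The liver gene Mup3 and the neutrophil gene Ngp passed the filter narrowly, at percentiles of 42.8 and 41.1. In the DBA pair Mup3 read 732 on the smoked array, and Ngp read 2551 on the control array. These high values helped to keep both genes and also set their response, so their calls are not independent of the filter. The liver genes Apoa1 and Ttr did not pass and were not tested. The part of these marker genes in the clock gene values was not tested.

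Other genes of the clock loop were read from a list of 26, of which 15 were measured and 12 tested. For this and the lists that follow, the background over 5740 genes was 41 called higher and 52 lower in DBA against C57, 50 and 87 in ICR against C57, and 30 and 32 in ICR against DBA. Csnk1e, the casein kinase 1 epsilon that phosphorylates PER proteins, was the 1 gene called in DBA against C57 (1.44, SE 0.29, adjusted p = 0.0457) and in ICR against C57 (1.40, SE 0.29, adjusted p = 0.0457). It read 65.1 and 128 in C57, 294 and 321 in DBA, and 204 and 113 in ICR. Its calls were close to the threshold and held in 7 of 15 and 8 of 15 alternatives, and both were lost without the C57 control (adjusted p = 0.586 and 0.445), ICR control (0.0968 and 0.252) or ICR smoked array (0.0995 and 0.0872). The DBA call was also lost without the DBA control array (0.182). The related kinase genes Csnk1d (-0.32 in DBA against C57) and Csnk1a1 (0.28) were not called. List medians were -0.04 in DBA and 0.06 in ICR against C57, near those of all genes.

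Arntl, which encodes BMAL1, was not called in any comparison. It read 122 and 113 in C57, 39.3 and 95.0 in DBA, and 106 and 38.9 in ICR. The DBA to C57 difference was -1.09 (SE 0.34, adjusted p = 0.2002), and the ICR to DBA difference 1.01 (SE 0.34, adjusted p = 0.207). Both were called only without the DBA smoked array (-1.63, adjusted p = 0.00915, and 1.55, adjusted p = 0.0189), on which Arntl was higher than on the DBA control array. Npas2, the CLOCK paralogue, read 0.847 to 26.0 and Nfil3, a D-box repressor, 6.12 to 44.7, and neither passed the filter. Rora, an activator at ROR elements, and Bhlhe40, an E-box repressor, were at 0.32 and -0.26 in DBA against C57 and were not called. With smoke 0 of the 12 were called, and the list median was -0.0001.

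**Figure D4:**
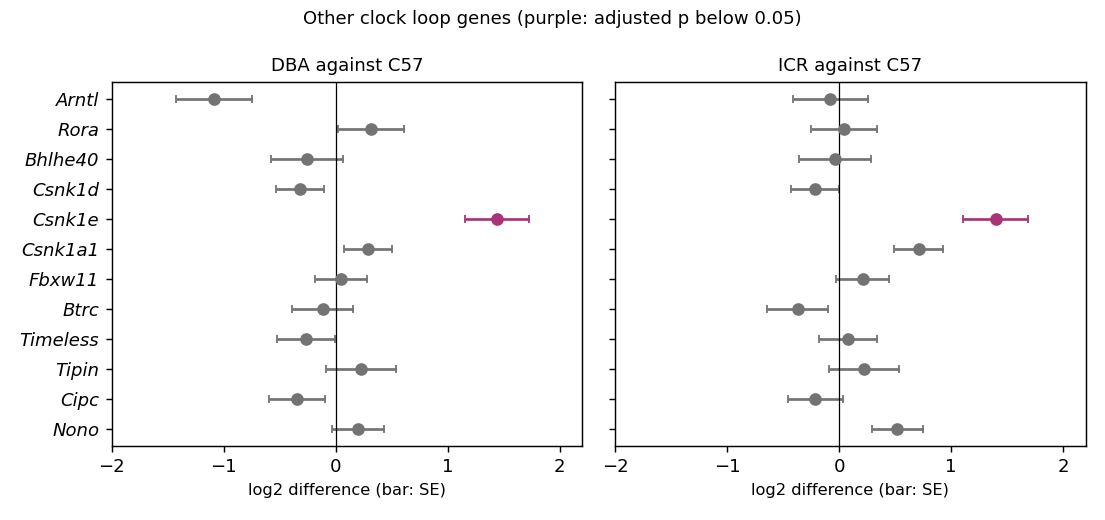
Fitted log2 difference (horizontal axis, bar: SE) of the 12 other clock loop genes tested, for DBA and for ICR against C57, with 2 arrays per strain. Csnk1e passes in both, at 1.44 and 1.40, while Arntl lies at -1.09 and -0.08 and does not pass.

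Clock outputs that are rhythmic in many organs were a list of 18 symbols, with 14 genes tested. The list holds Noct also under its older symbol Ccrn4l. In DBA against C57 the 1 gene called was Klf9 (1.31, SE 0.23, adjusted p = 0.0256), a Kruppel-like factor under clock and glucocorticoid control, at 324 and 321 in C57, 807 and 893 in DBA, and 394 and 287 in ICR. It was called in 8 of 15 alternatives, and not without the C57 control (adjusted p = 0.0615), C57 smoked (0.0540) or DBA control array (0.149). In ICR against C57 the 2 called were Noct, known for its nightly rhythm, and Hspa1b, an inducible heat shock protein. Noct, read by a probe set that may also detect related sequences, was higher by 1.24 (SE 0.25, adjusted p = 0.0441), called in 7 of 15 alternatives. It read 213 and 386 in C57, 448 and 754 in DBA, and 538 and 294 in ICR. On that deposited scale the C57 and ICR arrays overlapped. Hspa1b was higher by 3.01 (SE 0.29, adjusted p = 0.00141). Noct lost its call without the C57 control (adjusted p = 0.387), ICR control (0.219) or ICR smoked array (0.0565). Hspa1b was also higher in ICR than in DBA (3.62, adjusted p = 0.000592), the 1 output gene called there. Wee1 (-0.11), a kinase that holds cells back from mitosis, and Usp2 (-0.25), a deubiquitinase, were not called in DBA against C57. List medians were -0.11 and 0.02 against C57, and 0 of the 14 were called with smoke.

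Glucocorticoid-responsive genes, which follow the daily hormone rhythm and include Per1, had 12 tested of a list of 13. In DBA against C57 1 was called higher (Klf9) and 2 lower, the metallothioneins Mt1 (-1.29, adjusted p = 0.0354) and Mt2 (-1.19, adjusted p = 0.0256). In ICR against C57 Sgk1, a hormone-induced kinase, was higher (1.44, adjusted p = 0.0273), and Mt1 (-2.09, adjusted p = 0.00392) and Mt2 (-1.06, adjusted p = 0.0425) were lower. Their median was 0.20 in DBA and 0.44 in ICR against C57. In each of these comparisons 9 of the 12 were not called. In ICR against DBA the 1 called was Errfi1, an inhibitor of EGF receptor signalling (1.08, adjusted p = 0.0475). With smoke 0 of the 12 were called and 1 had a positive value (median -0.18, against 0.007 over all genes). In the C57 response Lcn2, which encodes lipocalin 2, was called higher (2.87, adjusted p = 0.0188) and Zbtb16, a zinc finger factor, lower (-2.83, adjusted p = 0.00337), and in the DBA response Lcn2 was called lower (-3.01, adjusted p = 5.59e-05). Lcn2 is also abundant in neutrophils. Of 13 immediate early genes, which rise within minutes of a stimulus, 0 were called in DBA against C57 and 1, Jun, in ICR against C57 (1.03, adjusted p = 0.0490) and in ICR against DBA (1.18, adjusted p = 0.0458), with 0 called with smoke. Many of these calls rest on single arrays. In DBA against C57, Mt1 was lost without the C57 control (adjusted p = 0.559), DBA control (0.0753), ICR control (0.0520) or ICR smoked array (0.0520), and Mt2 without the C57 control (0.225) or DBA smoked array (0.0819). In ICR against C57, Mt1 was lost without the ICR control array (0.0842), Sgk1 without the C57 control (0.152) or ICR control array (0.159), and both Mt2 (0.0565 to 0.324) and Jun (0.0652 to 0.294) without any one of the C57 or ICR arrays. In ICR against DBA, both Errfi1 (0.0894 to 0.145) and Jun (0.0541 to 0.187) were lost without any one of the DBA or ICR arrays.

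Genes most like Dbp over the 6 arrays were sought among 1699 other genes that passed the filter and ranged over at least 1 log2 unit, by Pearson correlation of log2 values. The 5 highest were Gatm (r = 0.978), which makes the creatine precursor, Klf9 (0.977), Glo1 (0.974), which clears methylglyoxal, Hebp1 (0.973), a heme-binding protein, and Il6ra (0.972), the interleukin 6 receptor. The 5 lowest were Snhg6 (-0.994), Spg21 (-0.989), Cdc23 (-0.986), Trim21 (-0.978) and a probe set annotated to Mir686 (-0.977). Gatm, for one, read 30.3 and 19.96 in C57, 321 and 201 in DBA, and 151 and 96.4 in ICR, lowest in C57 as Dbp was. For Clock the highest were Ssbp1 (0.966), Chmp2b (0.965), Dennd4c (0.954), Rbm6 (0.943) and Cltc (0.943), and the lowest Bcl2 (-0.979), Lep (-0.972), Gfra2 (-0.959), Fscn1 (-0.957) and Src (-0.956). With 6 arrays in 3 strains these values order genes and carry no test, and the arrays share strain, array signal and RNA quality.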

How the data were processed

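Lung RNA of 6 mouse samples was measured on Affymetrix arrays. Per the labels' protocols, Trizol-extracted total RNA was made into biotin-labelled cRNA from an oligo(dT) primer. The deposited values are probe set intensity on a linear scale (0.0305 to 10579, 12488 probe sets). For the authors' summary method, software and scaling, the sources used here give nothing. The 10 members and the lists were chosen with earlier results of these data known.

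Values were transformed as log2 of intensity plus 8.05 (the 20th percentile), and quantile normalized, because array medians of log2 values spread over 1.45, above a limit of 0.1. The 66 control probe sets were dropped, and those with a mean above the 40th percentile kept, which left 7465. Each gene was read at its strongest single-symbol probe set (10855 probe sets had 1 symbol, 396 several, 1237 none). All 10 members matched a RefSeq gene by identifier.

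Fits used limma 3.58.1 in R 4.3.3 (lmFit, eBayes with a mean trend): strain plus smoke on all 6 arrays (2 residual degrees of freedom), and an extra smoke effect per strain (1 residual degree of freedom, where 1 pair is taken to vary as the rest do). P-values are 2-sided, adjusted by Benjamini-Hochberg across the 7465 probe sets. The fitting script was tested on simulated data. Named genes were the members, list genes called or given as examples, and the 5 genes most and least like Dbp and Clock. Alternatives changed the pseudocount, filter, scaling, variance prior and terms, or left out arrays. The small number of arrays limits precision. Plots used matplotlib 3.10.9.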

Additional observations from a re-analysis of the deposited data

How the results depend on the processing

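The smoke comparison and the responses of C57 and DBA called 0 clock genes under every alternative run. Without scaling between arrays the count in DBA against C57 was 2, in ICR against C57 it was 1, in ICR against DBA 1 (Nr1d1) and in the ICR response 1 (Clock). Without the filter ICR against C57 called 0. With single arrays left out the count ran from 3 to 4 in DBA against C57, from 0 to 4 in ICR against C57 and from 0 to 1 in ICR against DBA. Of 46 fitted differences of single genes reported, 3 changed sign, all without scaling: Per1 in ICR against C57 (-0.14), Errfi1 in ICR against C57 (-0.18) and Tef in the ICR response (-0.068). Of the 48 other fitted differences of members, 30 changed sign under at least 1 alternative and 0 were called under any. Over all probe sets, calls in DBA against C57 numbered 129, 66 without the filter and 102 to 295 with single arrays left out. In ICR against C57 they numbered 171, 44 without the filter and 32 to 507 with arrays left out, and in ICR against DBA 87, 38 without the filter, 262 without scaling and 12 to 226 with arrays left out. The ICR response called 0 probe sets, and 1795 without scaling. No paired analysis was possible because each group holds 1 array, if pairing is taken from replicate numbers. The smoke fit instead pairs the arrays by strain, and without that strain block 0 clock genes were called. Low signal limits Dbp in C57 most.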
